A study of Mus musculus with 8 samples.

Results

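The transcripts described here are 9 long non-coding RNAs that host small nucleolar RNAs (snoRNAs): Gas5, Snhg1, Snhg3, Snhg5, Snhg6, Snhg8, Snhg12, Snhg15 and Snhg17. They were picked by name from the 53801 genes of the deposited expression table. RNA was sequenced from sorted cortical microglia of 8 mice, all at postnatal day 30. In the IL-33 group, 4 mice (mice 1 and 2 female, mice 3 and 4 male) received interleukin-33, a cytokine of the interleukin-1 family, into a cerebral ventricle on one side and were killed 4 h later. In the vehicle group, 4 mice (mice 5 and 6 female, mice 7 and 8 male) received vehicle alone by the same route, and the header of the deposited table names this vehicle PBS. Neither mouse strain nor sorting markers are stated in the sources used here.

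snoRNAs are short nuclear RNAs that guide chemical modification of ribosomal RNA and of other small RNAs. Box C/D snoRNAs guide methylation of the ribose, and box H/ACA snoRNAs guide the conversion of uridine to pseudouridine. In mammals most of them lie in introns of host genes and are trimmed out of the spliced intron, while the joined exons of a non-coding host leave the nucleus and are, for several hosts, short-lived. Gas5 was first known as a transcript that accumulates when cells stop growing. Its spliced RNA begins with a 5′ terminal oligopyrimidine (TOP) tract, as ribosomal protein messenger RNAs do, and is removed by nonsense-mediated decay, which acts on RNAs whose translation ends early.

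Each of the 9 transcripts had at least 1 annotated snoRNA gene inside its bounds in GENCODE M21 (mouse build GRCm38), with 33 snoRNA entries at 31 loci in all. Gas5 held 10 entries at 9 loci and Snhg1 held 8. Snhg12 held 5 entries at 4 loci, Snhg17 held 3, Snhg3 and Snhg5 held 2 each, and Snhg6, Snhg8 and Snhg15 held 1 each. Of the 33 entries, 18 carried a C box (TGATGA) near the 5′ end with a D box (CTGA) near the 3′ end, 10 ended in a stretch with the letters ACA near the 3′ end, and 5 showed neither pattern. The following snoRNAs are shown because they represent both classes among the hosts whose values are given below. Capitals mark the C and D boxes, or the ACA letters, and sequences are GENCODE M21 transcripts read 5′ to 3′.
Snord47, inside Gas5, chr1:161038082-161038158, plus strand: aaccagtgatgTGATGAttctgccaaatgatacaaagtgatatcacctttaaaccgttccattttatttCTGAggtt
Snord87, inside Snhg6, chr1:9942463-9942549, minus strand: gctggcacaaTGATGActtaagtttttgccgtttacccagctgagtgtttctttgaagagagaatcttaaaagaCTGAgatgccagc
Snord50a, inside Snhg5, chr9:88521529-88521600, minus strand: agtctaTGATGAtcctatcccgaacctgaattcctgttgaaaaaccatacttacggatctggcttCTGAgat
Snord50b, inside Snhg5, chr9:88521797-88521868, minus strand: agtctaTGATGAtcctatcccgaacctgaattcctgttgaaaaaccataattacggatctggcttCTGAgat
Snora9, inside Snhg15, chr11:6528033-6528165, minus strand: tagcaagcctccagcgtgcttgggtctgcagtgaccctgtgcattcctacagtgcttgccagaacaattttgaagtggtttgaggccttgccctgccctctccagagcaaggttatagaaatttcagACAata
Snora24, inside Snhg8, chr3:123507937-123508066, minus strand: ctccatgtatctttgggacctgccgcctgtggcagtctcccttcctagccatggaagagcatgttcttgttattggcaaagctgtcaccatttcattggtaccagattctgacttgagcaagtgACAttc

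The 2 snoRNAs of Snhg5 were the same at 71 of 72 bases. The 2 snoRNAs of Snhg3, Snora73a and Snora73b, were the same at 198 of 205 bases.

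The second set of sequences covers the starts of the transcripts, where a TOP tract would lie. RefSeq (GRCm38.p6) gave promoter windows for 8 of the 9 transcripts, all but Snhg6, with 10 windows in all because Gas5 and Snhg17 each had 2 starts. A TOP tract was searched for as a C followed by at least 4 pyrimidines, with that C within 10 bases of the annotated start on the transcribed strand. Such a tract stood in 5 of 10 windows (the second start of Gas5, Snhg3, Snhg5, Snhg8 and Snhg12), against 30.2% of all 32851 RefSeq windows, so that a match by these letters alone is common. Each sequence shown runs from 20 bases before the start to 30 bases from the start onward, with the tract in capitals where one was found.
Gas5, second start, chr1:161035146-161035195, plus strand: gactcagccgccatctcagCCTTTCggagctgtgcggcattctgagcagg
Snhg12, chr4:132308658-132308707, plus strand: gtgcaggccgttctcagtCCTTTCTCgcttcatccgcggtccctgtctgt
Snhg8, chr3:123508307-123508356, minus strand: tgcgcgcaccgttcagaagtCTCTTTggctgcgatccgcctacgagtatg
Snhg5, chr9:88522868-88522917, minus strand: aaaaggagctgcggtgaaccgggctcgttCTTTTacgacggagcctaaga
Snhg15, chr11:6528731-6528780, minus strand: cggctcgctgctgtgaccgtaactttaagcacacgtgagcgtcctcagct
Snhg1, chr19:8723467-8723516, plus strand: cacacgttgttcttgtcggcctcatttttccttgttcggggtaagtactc

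The tract lay at the annotated start or within 2 bases of it in Gas5, Snhg8 and Snhg12, and 10 bases into the transcript in Snhg5. No tract by these letters was found in the windows of Snhg1, Snhg15 and Snhg17. Of 4 factor motifs searched in the 300-base windows on both strands, the cyclic AMP response element TGACGTCA stood in the windows of Gas5 and Snhg15 and in 1.79% of all windows. The E-box CACGTG was found for Snhg15 (7.15% of all windows), the NF-kB motif for Snhg8 (8.46%), and the ETS motif CCGGAAGT for Snhg3 (3.89%). No motif search was tested for enrichment, and a match in a window is a description and does not show binding.

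The main comparison asked whether the host transcripts differed in microglia 4 h after IL-33. Values are normalized counts, which are read counts that the authors divided by 1 size factor per library. Genes that reached 10 normalized counts in 4 or more libraries were tested with limma on log2(normalized count + 1) with terms for treatment and sex, and a gene was called at a Benjamini-Hochberg adjusted p under 0.05 over 15110 tested genes. Of the 9 host transcripts 8 passed the filter. With IL-33, 7 of these 8 rose, 0 fell, and Snhg8 was not called. Snhg3, the transcript outside the test, was listed at 0 in all 8 mice. The background in this comparison was broad: 57.7% of tested genes were called, 29.2% higher and 28.5% lower. The median log2 fold change (IL-33 over vehicle) was 1.62 over the 8 tested host transcripts and 0.015 over all tested genes. At least 1 log2 unit of rise was seen in 6 of the 8, against 11.2% of all tested genes. In all 7 called transcripts the 4 IL-33 mice lay above the 4 vehicle mice, which held for 26.7% of all tested genes (25.6% had the reverse). These shares are descriptions of 8 chosen genes and do not set them apart from other genes by a test. In RNA from many cells at once, a change in RNA per cell and a change in the share of cells of a type cannot be told apart.

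**Figure D1:**
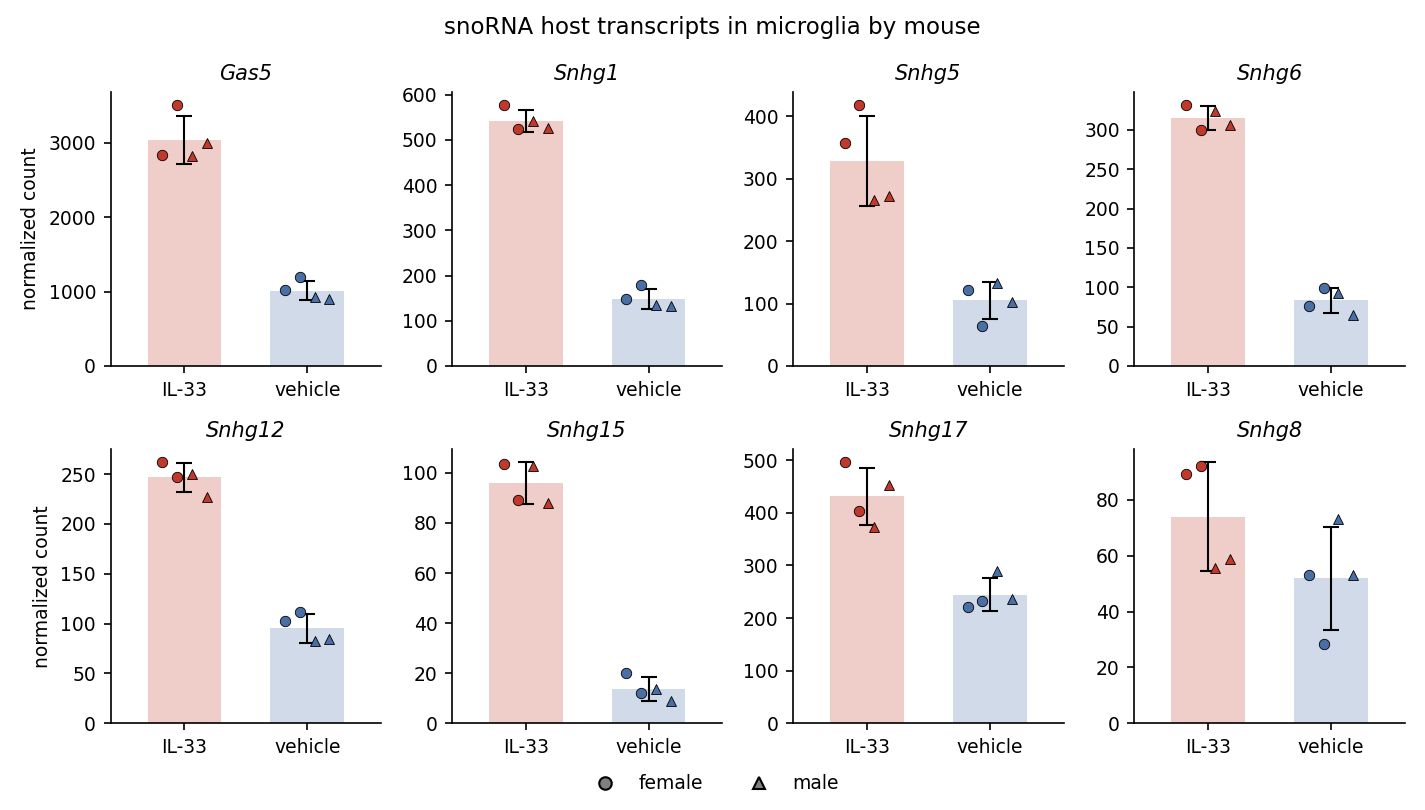
Normalized counts (y axis, starting at 0, a scale of its own in each panel) of the 8 host transcripts with reads, by mouse. Bars are group means and whiskers the SD over 4 mice, circles are females and triangles males; the groups overlap only in the Snhg8 panel, where the IL-33 males stand at 55.5 and 59.0 and the vehicle mice between 28.4 and 73.2.

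Gas5, the host of the largest number of snoRNAs in the set (ENSMUSG00000053332, chr1:161034422-161038539, plus strand), was the most abundant. Its normalized counts were 2839, 3507, 2820.2 and 2995 in IL-33 mice 1 to 4, against 1023, 1191, 931 and 907 in vehicle mice 5 to 8. The lowest IL-33 mouse stood above every vehicle mouse by more than the spread of either group. The means were 3041 ± 321 with IL-33 and 1013 ± 129 with vehicle (SD, n = 4 each), a log2 fold change of 1.59 ± 0.085 (SE, limma adjusted p = 4.99e-11).

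Snhg1 (ENSMUSG00000108414, chr19:8723475-8726443, plus strand), whose 8 snoRNA entries include Snord22, had 577, 524, 542 and 527 normalized counts in the IL-33 mice, against 148, 179, 135 and 132 in the vehicle mice. The IL-33 mice were close to each other, with a coefficient of variation of 4.52% against 14.5% among vehicle mice. With IL-33 it rose by a log2 fold change of 1.87 ± 0.11 (SE, limma adjusted p = 2.34e-10).

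Snhg6 (ENSMUSG00000098234, chr1:9941959-9944118, minus strand), the host of Snord87, had 332, 300, 324 and 306 normalized counts in the IL-33 mice, against 76.6, 99.2, 92.4 and 65.1 in the vehicle mice. This is a log2 fold change of 1.93 ± 0.15 (SE, limma adjusted p = 6.05e-09). Of its exon bases, 11.1% were shared with Mcmdc2 on the opposite strand, a gene of the MCM domain family, which rose as well. Mcmdc2 averaged 207 ± 26.5 with IL-33 and 64.8 ± 9.70 with vehicle (SD, n = 4 each), a log2 fold change of 1.66. The strand setting of the counting is not stated, so how far reads of these overlapping genes were kept apart was not tested.

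Snhg15 (ENSMUSG00000085156, chr11:6525591-6528760, minus strand), which holds Snora9, gave the highest fold change in the set from the lowest vehicle level. Its normalized counts were 104, 89.3, 103 and 87.9 in the IL-33 mice, against 20.2, 12, 13.7 and 9.01 in the vehicle mice. All vehicle mice together had 59 reads and all IL-33 mice 380, so that the size of the change rests on few vehicle reads. The log2 fold change was 2.77 ± 0.26 (SE, 95% interval 2.22 to 3.32, limma adjusted p = 7.62e-08), and 2.17 with a pseudocount of 10.

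Snhg5 (ENSMUSG00000097195, chr9:88521050-88522929, minus strand), host of the pair Snord50a and Snord50b, had 357, 418, 266 and 273 normalized counts in the IL-33 mice, against 121, 64.3, 133 and 102 in the vehicle mice. Both IL-33 females stood above both IL-33 males, and vehicle mouse 6, a female, was the lowest of all. The log2 fold change was 1.66 ± 0.22 (SE, limma adjusted p = 2.29e-05).

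Snhg12 (ENSMUSG00000086290, chr4:132308623-132311024, plus strand), host of Snora16a, Snora44, Snora61 and Snord99, had 262, 247, 250.4 and 227 normalized counts in the IL-33 mice, against 103, 111, 82.4 and 84.1 in the vehicle mice. The log2 fold change was 1.38 ± 0.13 (SE, limma adjusted p = 1.16e-07). Snhg17 (ENSMUSG00000085385, chr2:158353700-158361580, minus strand), with 3 snoRNA entries that end in ACA, had 496, 403, 373 and 453 in the IL-33 mice, against 220.4, 232, 290.1 and 236 in the vehicle mice. Its log2 fold change of 0.81 ± 0.12 (SE, limma adjusted p = 2.05e-05) was the lowest among the called transcripts.

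Snhg8 (ENSMUSG00000104960, chr3:123507552-123508404, minus strand), host of Snora24, had 89.3, 92.3, 55.5 and 59.0 normalized counts in the IL-33 mice, against 53.0, 28.4, 73.2 and 53.0 in the vehicle mice. The groups overlapped, and the highest vehicle mouse stood above both IL-33 males. The log2 fold change was 0.54 ± 0.28 (SE, 95% interval -0.04 to 1.13, limma adjusted p = 0.104), an interval that holds 0 as well as a rise of 1 log2 unit. Without vehicle mouse 7 it was 0.77 (limma adjusted p = 0.0324) and was called, and without vehicle mouse 6 it was 0.23 (limma adjusted p = 0.401).

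Snhg3 (ENSMUSG00000085241, chr4:132348014-132353686, minus strand), host of the near-identical pair Snora73a and Snora73b, was listed at 0 in all 8 mice. In the annotation 86.3% of its exon bases were also exon bases of other genes: 13.7% of Rcc1 on the same strand, 71.5% of Gm17300 on the opposite strand, and 16.1% of snoRNA genes. Rcc1, which encodes a nucleotide exchange factor of the nuclear transport GTPase Ran, had 142, 168, 162 and 92.4 normalized counts in the IL-33 mice, against 68.1, 68.7, 59.5 and 55.0 in the vehicle mice (log2 fold change 1.12, limma adjusted p = 5.91e-05). Gm17300 had 13 reads in all IL-33 mice and 6 in all vehicle mice. How reads in shared bases were assigned was not tested, so that the zeros of Snhg3 give no level for that transcript.

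Counted together, the 9 transcripts took 595, 695, 593 and 628 RPM (reads scaled to the recovered total) in IL-33 mice 1 to 4, against 225, 252, 222 and 201 in vehicle mice 5 to 8. Gas5 supplied 56.2% to 62.9% of these reads in the IL-33 mice and 53.2% to 62.1% in the vehicle mice. The share held by Gas5 overlapped between the groups while the total did not.

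Ordered by fold change, the 8 transcripts ran Snhg15, Snhg6, Snhg1, Snhg5, Gas5, Snhg12, Snhg17 and Snhg8. For each pair of neighbours in this order, the difference of their log2 values was taken within each mouse and its range compared between the groups. The ranges did not overlap for Snhg15 and Snhg6, where the difference averaged -1.71 in the IL-33 mice and -2.55 in the vehicle mice. They did not overlap either for Snhg12 and Snhg17, at -0.80 in the IL-33 mice and -1.36 in the vehicle mice. For the other 5 neighbouring pairs the ranges overlapped, so that the order from Snhg6 to Snhg12 is not resolved pair by pair. These pairs were set by the order itself and were given no test.

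**Figure D2:**
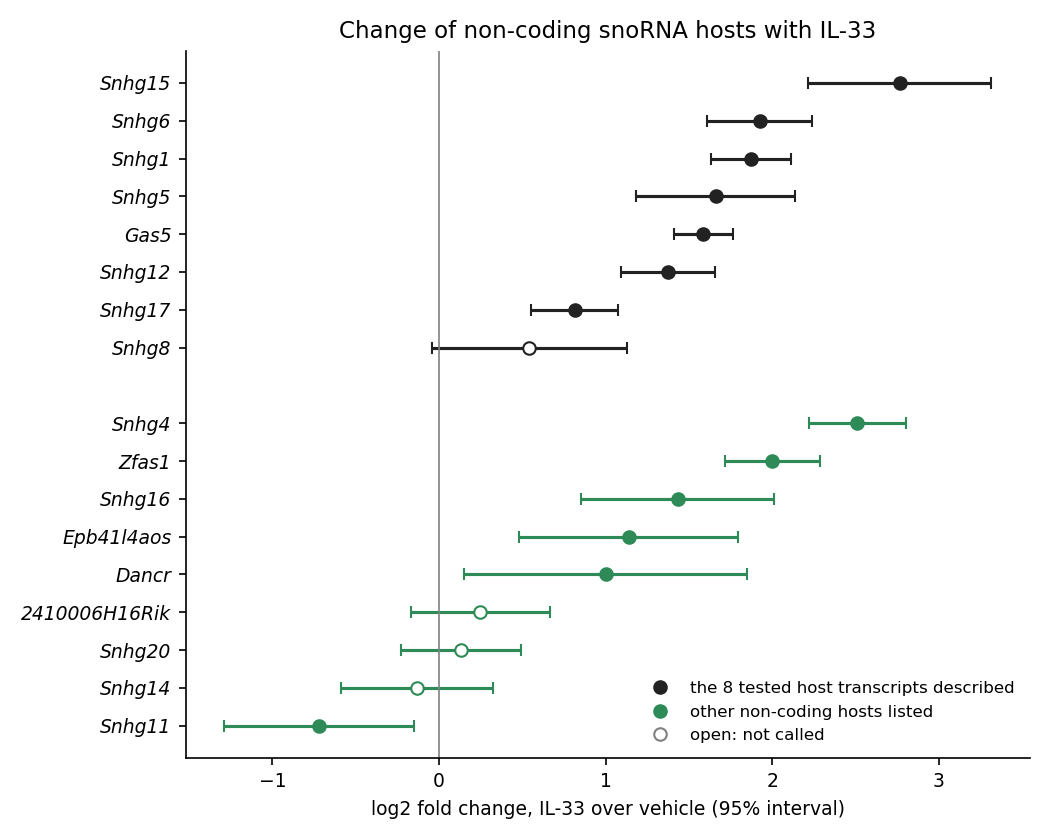
Log2 fold change of IL-33 over vehicle (x axis) with its 95% interval from limma for the 8 tested host transcripts (black) and for the 9 tested genes of a list of other non-coding snoRNA hosts (green). Filled points were called; Snhg15 has the highest value at 2.77 and Snhg11 the lowest at -0.72.

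The authors' deposited table of their own comparison, which lists 7029 genes up to an adjusted p of 0.00996, holds 7 of the 9 transcripts, all but Snhg3 and Snhg8. In the authors' deposited table the log2 fold changes were 2.79 for Snhg15, 1.92 for Snhg6, 1.88 for Snhg1, 1.62 for Snhg5, 1.59 for Gas5, 1.38 for Snhg12 and 0.82 for Snhg17. These are fold changes from the same reads and are no separate evidence.

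Levels were compared between genes per kilobase of merged exon, since a longer transcript collects more reads. In the IL-33 mice Gas5 stood at 809 ± 85.4 normalized counts per kilobase (SD, n = 4), ahead of Snhg6 at 275 ± 13.1, Snhg5 at 190 ± 41.9 and Snhg1 at 183 ± 8.26. Snhg12 followed at 103 ± 6.0, then Snhg8 at 86.8 ± 22.8, Snhg15 at 70.5 ± 6.15 and Snhg17 at 61.1 ± 7.72. Neighbours in this order did not overlap between Gas5 and Snhg6, Snhg6 and Snhg5, and Snhg1 and Snhg12, and the others overlapped. In the vehicle mice Gas5 was again first at 269 ± 34.3 and was clear of the rest. Snhg6 stood at 72.7 ± 13.5, Snhg8 at 60.8 ± 21.5, Snhg5 at 60.7 ± 17.3, Snhg1 at 49.98 ± 7.24, Snhg12 at 39.6 ± 5.89 and Snhg17 at 34.7 ± 4.39, each overlapping the next. Snhg15 came last at 10.1 ± 3.48 and was clear of Snhg17. The merged exons include isoforms that retain introns, so a transcript with many such bases is placed lower on this scale than its spliced form alone would be. In this annotation Snhg1, Snhg8 and Snhg12 are each 1 merged exon over the whole locus, so spliced and unspliced RNA are not told apart there. In Gas5, Snhg5 and Snhg17, merged exons of 3760, 1730 and 7052 bases cover most of the locus, so the same largely holds. How far the IL-33 changes are those of spliced RNA was not tested.

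**Figure D3:**
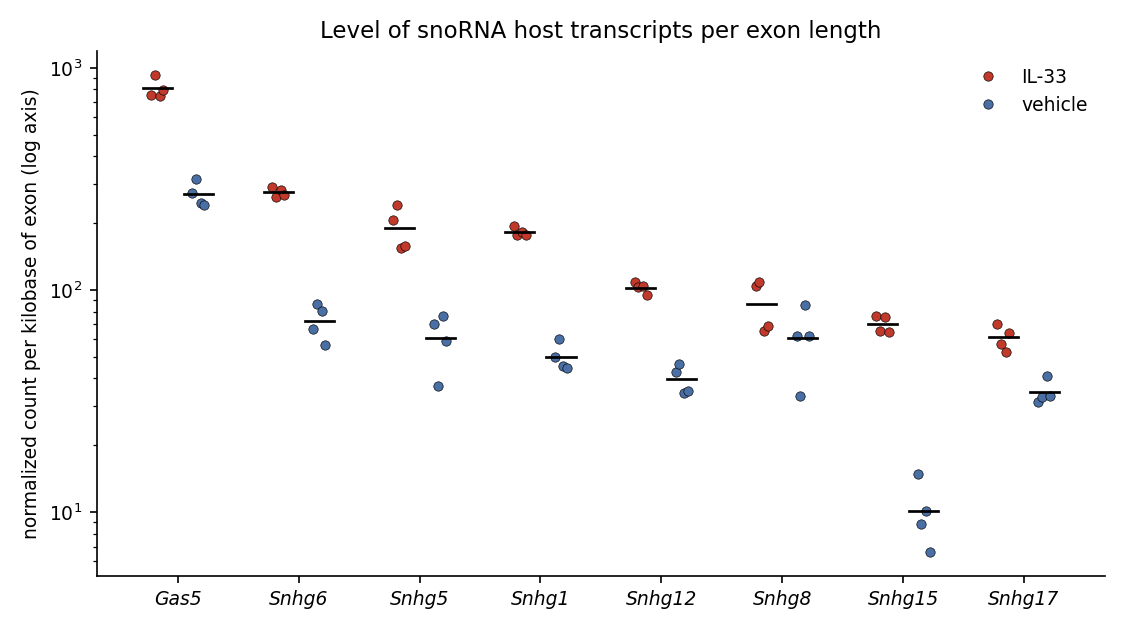
Normalized counts per kilobase of merged exon (log y axis) of the 8 host transcripts with reads, in order of the IL-33 mean, with IL-33 mice on the left of each pair and vehicle mice on the right. Lines are means of 4 mice; Gas5 is highest in both groups (809 and 269), and Snhg15 is last only in the vehicle group (10.1).

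The annotated snoRNA genes themselves were almost unread. Of the 33 snoRNA entries inside the 9 transcripts, 32 had 0 reads in all 8 mice. The exception was Snord87, printed above, with 13 reads in the IL-33 mice together and 10 in the vehicle mice together, below the filter. Snord87 and Snora73b, an entry inside Snhg3 with 0 reads, shared no base with an annotated exon of their host, while the other 31 entries overlapped such exons. In Snhg1 and Gas5, snoRNA genes covered 20.95% and 17.8% of the exon bases, and in Snhg6 0%. How reads in such shared bases were assigned was not tested, and how well libraries of this kind hold RNAs this short was not tested. The values above are therefore those of the host entries and give no level for their snoRNAs. Whether reads from snoRNA bases entered the host values was not tested.

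Sex was balanced, with 2 females and 2 males per group. No host transcript was called between females and males, where 0.0596% of tested genes were. The lowest unadjusted p among the 8 was that of Gas5 (female minus male log2 difference 0.19, limma adjusted p = 0.938). No host transcript was called for an IL-33 effect that differed by sex, where 0.00662% of tested genes were. The log2 fold change of Snhg8 was 1.20 in females and -0.12 in males, a difference of 1.33 ± 0.45 (SE, limma adjusted p = 0.374). That of Snhg5 was 2.12 in females and 1.20 in males, a difference of 0.91 ± 0.35 (SE, limma adjusted p = 0.484). Without vehicle mouse 5, both differences were called, at 1.77 for Snhg8 (limma adjusted p = 0.0374) and 1.36 for Snhg5 (limma adjusted p = 0.0117), with 1 vehicle female left, mouse 6, whose spread is taken to be that of the other mice. Without vehicle mouse 6, which stands apart from the other vehicle mice as given below, the differences were 0.89 for Snhg8 (limma adjusted p = 0.627) and 0.46 for Snhg5 (limma adjusted p = 0.716). For the other 6 tested transcripts the difference of the log2 fold change between the sexes lay between -0.43 (Snhg15) and 0.33 (Snhg17).

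Other non-coding hosts were followed as a list of 12, of which 9 were tested: 5 rose, 1 fell and 3 were not called, with a median log2 fold change of 1.0. The percentages of all tested genes given above (29.2% higher and 28.5% lower) are the background for this and the following lists. Snhg4 had 666, 569, 437 and 529 normalized counts in the IL-33 mice, against 91.7, 123, 97.0 and 73.1 in the vehicle mice (log2 fold change 2.51, limma adjusted p = 7.28e-11). Zfas1, which like Gas5 is a TOP transcript with snoRNAs in its introns, had 519, 518, 424 and 456 in the IL-33 mice, against 108, 121, 103 and 148 in the vehicle mice (2.0, limma adjusted p = 1.05e-09). In both, every IL-33 mouse stood above every vehicle mouse. Snhg16 and Epb41l4aos rose by 1.43 and 1.14, the IL-33 mice lying above all vehicle mice in 4 of 4 for Snhg16 and 3 of 4 for Epb41l4aos.

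Dancr, at 18.2 ± 9.27 with IL-33 and 7.89 ± 1.03 with vehicle (SD, n = 4 each), was called (log2 fold change 1.0, limma adjusted p = 0.0426), and the call was lost in 7 of 17 alternatives (adjusted p from 0.0194 to 0.210 over all 17). It passed the filter only through the IL-33 group. Snhg11, at 70.8 ± 23.1 with IL-33 and 121 ± 51.6 with vehicle, was the member called lower (log2 fold change -0.72, limma adjusted p = 0.0316), and its call was likewise lost in 7 of 17 (0.00242 to 0.113). Snhg14, Snhg20 and 2410006H16Rik were not called, at -0.13, 0.13 and 0.25. Snhg9 and Snhg10 were below the filter and Snhg18 was listed at 0 in all mice.

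By annotation alone, 312 genes outside the set of 9 held a snoRNA gene inside their bounds on the same strand, and 231 of them were tested. They include 9 genes of the list of 12 above, 7 of them tested, of which 4 were called higher and 1 lower, so these are counted in both. Of the 231 tested genes, 126 rose, 46 fell and 59 were not called, with a median log2 fold change of 0.34. Among the 20 that do not code for protein, 12 rose, 3 fell and 5 were not called (median 1.0), and 1110038B12Rik stood highest at 2.29, with 593 ± 42.3 with IL-33 and 127 ± 50.2 with vehicle (SD, n = 4 each). A830008E24Rik, also without a coding sequence, fell to 46.9 ± 12.3 with IL-33, against 451 ± 64.4 with vehicle (log2 fold change -3.27). Gm42788 fell as well, at -1.71, with 27 reads in all IL-33 mice together and 103 in all vehicle mice. It passed the filter only through the vehicle group. The size of its change is uncertain, with log2 values of -2.0041 to -1.024 over 17 alternatives.

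Among 28 ribosomal protein genes that host snoRNAs, 21 rose, 0 fell and 7 were not called (median 0.45). The largest were Rps2 at 1.20, Rps20 at 1.11, Rpl13a at 1.01 and Rpl4 at 0.98, and reads of such genes can be split with processed pseudogenes. Of 183 other tested protein-coding hosts, 93 rose, 43 fell and 47 were not called (median 0.28). Piwil2, which encodes a protein that binds small RNAs of the germ line, averaged 58.1 ± 11.7 with IL-33 and 3.21 ± 2.44 with vehicle (SD, n = 4 each, log2 fold change 3.97). Etl4, Ell2, a transcription elongation factor, and Top2a, a DNA topoisomerase of dividing cells, were at 3.64, 3.30 and 3.12. Piwil2 and Top2a, with 13 and 12 reads in all vehicle mice together, passed the filter only through the IL-33 group, and the size of their change is uncertain, with log2 values of 2.37 to 4.25 and 1.6 to 3.50 over 17 alternatives.

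Genes for the proteins that bind snoRNAs rose in most cases, and 3 of them (Nop56, Nop58 and Dkc1) host snoRNAs themselves by annotation. Of 8 genes for box C/D core and assembly proteins, 7 rose, 0 fell and 1, Znhit3, was not called (median log2 fold change 0.86). Nop58, a core protein of box C/D particles, had 1294, 1384, 1098 and 1165 normalized counts in the IL-33 mice, against 348, 390.4, 422 and 320.3 in the vehicle mice (1.74, limma adjusted p = 1.48e-10). Its partner Nop56 rose by 1.58, and Rrp9, the protein specific to the U3 snoRNA, by 1.75. Fbl, the methyltransferase fibrillarin, rose by 0.88, with 618 ± 39.3 with IL-33 and 336 ± 32.6 with vehicle (SD, n = 4 each).

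Of 6 genes for box H/ACA proteins, 4 rose, 0 fell and 2, Nop10 and Naf1, were not called (median 0.81). Gar1, a core protein, had 273, 377, 364 and 362 normalized counts in the IL-33 mice, against 136, 130, 96.1 and 118 in the vehicle mice (1.51, limma adjusted p = 1.03e-07). Nhp2, another core protein, rose by 1.02, Shq1, an assembly chaperone, by 0.88, and Dkc1, the pseudouridine synthase dyskerin, by 0.73. Of 4 genes of the R2TP chaperone complex, which helps to assemble these particles, the ATPases Ruvbl1 and Ruvbl2 rose by 1.09 and 0.49, and Pih1d1 and Rpap3 were not called at -0.31 and 0.42.

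Of 16 other messenger RNAs known for a TOP tract, 16 rose (median log2 fold change 0.91), and 5 of these genes also host snoRNAs by annotation. The highest was Eef1g, a subunit of elongation factor 1, at 2298 ± 163 with IL-33 and 680.2 ± 46.0 with vehicle (SD, n = 4 each, log2 fold change 1.75). Eif3e, Hnrnpa1 and Npm1 rose by 1.17, 1.08 and 1.06, and the lowest was Tpt1 at 0.28.

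Factors that remove or trim the hosts' RNA were counted as well. Of 15 genes of nonsense-mediated decay, 11 rose, 0 fell and 4 were not called (median 0.49). Magohb and Rbm8a, components of the exon junction complex, rose by 1.07 and 0.78, Eif4a3, its helicase, by 0.79, and Smg5, which acts on targeted RNA, by 1.01. Upf1, the central helicase, rose by 0.55, and Smg1, the kinase that modifies it, was not called at -0.11. Of 15 tested genes of intron debranching and RNA trimming, 9 rose, 1 fell and 5 were not called (median 0.47). The exosome genes Exosc2, Exosc1 and Dis3 rose by 1.28, 1.12 and 1.10, while Parn, a poly(A)-specific ribonuclease, fell to 233 ± 20.1 with IL-33, against 433 ± 14.0 with vehicle (-0.89, limma adjusted p = 9.87e-07). Dbr1, the debranching enzyme that opens intron lariats, was not called at 0.36.

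**Figure D4:**
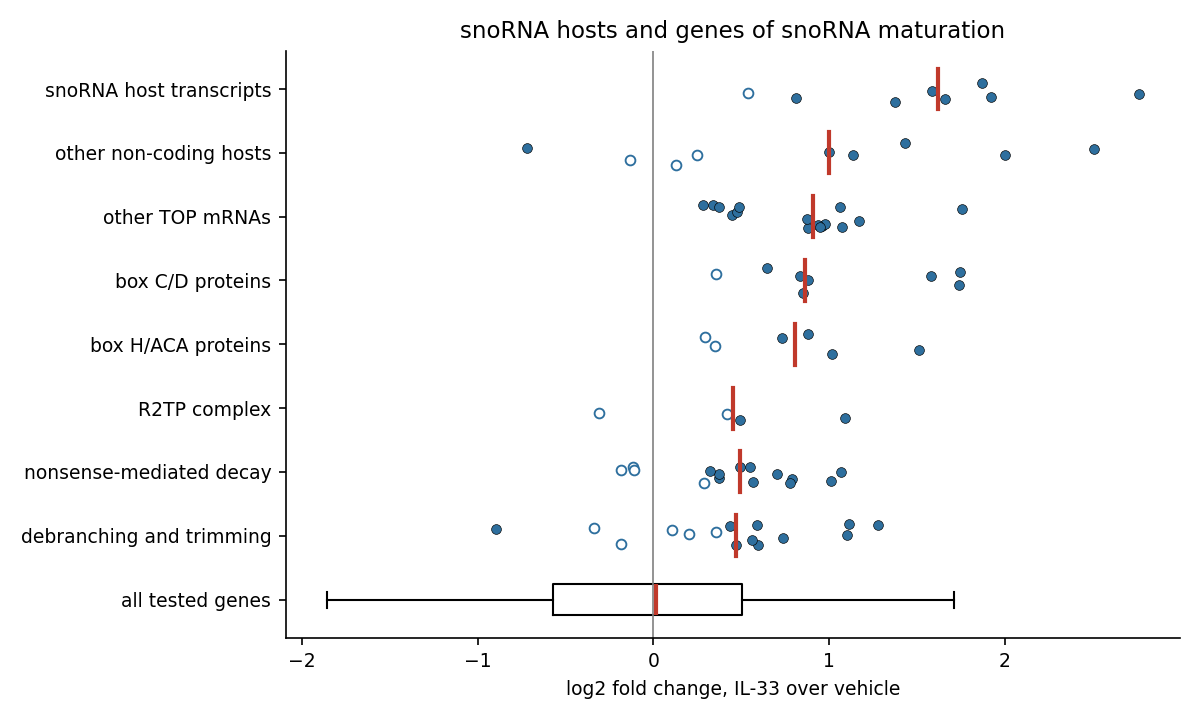
Log2 fold change of IL-33 over vehicle (x axis) of each tested gene in 8 lists (points, filled where called) with the list median (red line), above a box for all 15110 tested genes (quartiles, whiskers at the 5th and 95th percentiles). The medians run from 1.62 for the host transcripts to 0.46 for the R2TP complex, and the median of all tested genes is 0.015.

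For each tested transcript, the gene outside the set whose log2 values ran most alike over the 8 libraries was found among 10433 genes with a mean of 50 or more. For Gas5 it was Alkbh1 (Pearson r = 0.997), for Snhg1 Cpd (0.999), for Snhg5 Arrb2 (0.997) and for Snhg6 Cd44 (0.998). For Snhg12 it was Mir155hg (0.998), for Snhg15 Gm37084 (0.998), for Snhg17 Trak2 (0.990) and for Snhg8 Cyba (0.968). The 8 libraries fall into 2 groups, so that for the 7 called transcripts, whose groups do not overlap, the difference between the groups enters these values. For Snhg8, whose groups overlap, the value also rests on differences between mice of one group. The size of change was not part of the measure: Cd44 had a log2 fold change of 7.41 where Snhg6 had 1.93. Mir155hg, at 235 ± 68.4 with IL-33 and 3.40 ± 2.50 with vehicle (SD, n = 4 each), passed the filter only through the IL-33 group.

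Markers of the sorted cells and of other cells moved between the groups as well. Of 9 microglia markers 7 fell and 2 were not called, among them P2ry12 at -2.85, Sall1 at -1.70 and Siglech at -1.59. Their summed normalized counts were 92407 to 102970 with IL-33 and 166690 to 190760 with vehicle, so the defining markers of the labelled cell type were read at high levels in both groups. Summed lymphocyte markers were 41.7 to 80.0 with IL-33 and 2.52 to 8.72 with vehicle, while Cd3d, Cd3e and Nkg7 were at 0 in all mice. Neutrophil markers summed to 1.01 to 5.95 with IL-33 and 0 to 4.21 with vehicle, with S100a8, S100a9, Ly6g and Retnlg at 0. Summed markers of border macrophages were 212 to 265 with IL-33 and 628 to 702 with vehicle (Mrc1 fell by 1.48 on the log2 scale), and those of monocytes were 16 to 27.8 with IL-33 and 61.1 to 91.7 with vehicle (Ccr2 fell by 1.83). Oligodendrocyte markers summed to 570.5 to 749 with IL-33 and 469 to 556 with vehicle, with Mbp higher by 0.50. Neuron, astrocyte and endothelial sums overlapped between the groups, at 151 to 218, 287 to 503 and 222 to 290.1 with IL-33 and 145 to 252, 363 to 478 and 275 to 383 with vehicle. Named within these lists, Snap25 was not called, Aqp4 and Pecam1 were lower at -1.40 and -0.61, and Cdh5 was higher at 1.77. Aqp4, with 39 reads in all IL-33 mice together and 122 in all vehicle mice, passed the filter only through the vehicle group. The part of these cells in the values of the host transcripts was not tested.

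Depth ran from 6989640 to 9323677 recovered reads a mouse. Vehicle mouse 6 stood somewhat apart: the SD of its log2 values about the median of the other vehicle mice was 0.530, against 0.456 to 0.472 for the other vehicle mice, and its Il1b was 449 normalized counts, against 62.1 to 95.2. Without this mouse the same 7 host transcripts were called, with log2 fold changes of 2.67 for Snhg15, 2.02 for Snhg6, 1.95 for Snhg1, 1.65 for Gas5, 1.42 for Snhg12, 1.39 for Snhg5 and 0.80 for Snhg17.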

How the data were processed

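The labels give 4 mice per group. Every per-sample column was mapped (0 left over). Cortex was broken up in a homogenizer, microglia were enriched over 22% Percoll and sorted, all kept cold, and RNA was amplified with a Nugen Ovation kit (System V2), per the labels' protocols. The submitters' processing notes name the builds mm10 and GRCm38 and the tools HTSeq 0.9.0, STAR 2.6.0, DESeq2 1.24.0 and FastQC, and no strand setting is given in the sources used here. The deposited values are a signal in normalized counts, made by the authors with 1 size factor per library. Whole reads were recovered from them (100% of values within 0.001 of a whole read). The authors' deposited table holds, per the file headers, mean normalized counts as a signal, p-values with adjusted p-values, a score, and log2 fold changes with their standard errors.

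Genes were matched by Ensembl identifier to GENCODE M21 (53706 of 53801), promoters by symbol to RefSeq. By the labels each library is 1 mouse, and each mouse was 1 replicate. Recovered reads of 2 mice within a group differed by a chi-square per gene of 4.26 to 21.2 over 12 pairs, beyond the sampling noise of reads. That value cannot show that libraries come from separate mice, since there were no repeat libraries of 1 mouse to compare with. The limma fits (version 3.58.1, R 4.3.3) used eBayes with trend and robust on log2(normalized count + 1), two-sided, with an interaction term for the sexes. A fold change on this scale understates that of low genes. The fit was also run on simulated data with far fewer changed genes than were called here, and no result rests on that run. Counting tests on recovered reads called 8655 genes (edgeR 4.0.16) and 8393 (DESeq2 1.42.0). Reads carry no molecular identifiers.

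All 9 transcripts are named, with up to 4 called genes of largest change per list (or the member of highest mean), and the most alike gene per transcript. Some genes that met this rule are not reported here. Other genes were chosen after their values were seen. The members and lists were chosen with earlier results of these data known. Snhg7 is not used here because its symbol and identifier disagree. Snhg16 is listed in the annotation under 1810032O08Rik, and Snhg4 was matched by its deposited symbol.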

Additional observations from a re-analysis of the deposited data

How the results depend on the processing

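The 7 called host transcripts kept direction and call in all 19 alternatives: another pseudocount (0.5 or 10), no filter on low values, plain eBayes, TMM factors, quantile normalization, no sex term, females or males alone, each mouse left out, edgeR and DESeq2. Of the 8 tested, 7 or 8 were called higher and 0 lower. Genes called ran from 8064 to 9385. Over the snoRNA pathway lists, genes called lower numbered 2, but 1 by plain eBayes, 1 with no sex term, 3 by edgeR, 3 by DESeq2 and 5 with quantile normalization, and 1 to 3 with a mouse left out. Genes of these lists called higher numbered 50 to 54. Snhg8 was called in females alone (1.20), and in males alone it was at -0.12. The count of host transcripts with a called sex difference of the IL-33 effect was 0 to 2 with a mouse left out, 2 of them without vehicle mouse 5. Some uncalled values changed sign with a mouse left out: the sex differences of Gas5 (-0.30 to 0.0065) and Snhg6 (-0.41 to 0.086, with 0.020 without vehicle mouse 6) and the IL-33 effects of Snhg14 (-0.29 to 0.0009) and Snap25 (-0.20 to 0.14). The causes were not tested. The call of Aqp4 was lost in 3 of 17 alternatives. No paired analysis was run, because the labels used here give no pairing of mice between the groups. Depth limits Snhg3, which has no read, and the size of the change of Snhg15, which has 59 vehicle reads.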
